A study of Homo sapiens with 6 samples.

Results

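The 49 genes described here encode the machinery that copies DNA in S phase, together with a few cyclins and E2F factors of the G1 to S transition. They were taken as every probe set whose single annotated gene symbol was one of the 49 names, which gave 74 of the 22277 probe sets on the array. A probe set is a group of short oligonucleotides that reads 1 transcript, and some genes have several. In all, 72 of the 74 probe sets passed the filter on dim signal, meaning an intensity over 52.5, the median of the whole table, on 3 or more of the 6 arrays. Among all probe sets, 11303 passed. The 2 that did not pass were extra probe sets of ORC5 and RFC1, so all 49 genes had at least 1 tested probe set. These 49 were part of 7035 tested genes. A further 2 probe sets that name PRIM2 together with another gene were not used.

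The arrays carried RNA of PC3, a human prostate cancer cell line derived from a bone metastasis. Of the 6 samples, 3 (replicates 4 to 6) were labelled as PC3 cells that overexpress human PSMA after transfection with a pLNCX-PSMA plasmid. The other 3 (replicates 1 to 3) were labelled control. Their source label and the protocol give transfection with the vector alone, whereas their titles and genotype call them wild type, and the labels do not settle which holds. Both lines were grown in RPMI, and the protocol gives puromycin selection after 72 h of recovery. Whether each line was a single clone or a pool, and which promoter drove PSMA, is not given in the sources used here. PSMA, the product of FOLH1, is a cell-surface carboxypeptidase.

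The signal on the FOLH1 probe sets went against the labels. The brightest of them, annotated to FOLH1 and its close paralog FOLH1B, read 15.1, 8.58 and 13.7 on the arrays labelled PSMA, against 477, 417 and 548 on the arrays labelled control. The groups did not overlap, and the fitted log2 difference was -5.30. This probe set passed the filter only through the arrays labelled control and was dim on the others, so the size of the difference is uncertain. With no filter its limma adjusted p was 3.98e-06. The others shared with FOLH1B gave log2 differences of -4.09 and -4.72. The only probe set annotated to FOLH1 alone had a smaller difference of -1.11. It averaged 28.1 under the PSMA label and 60.5 under the control label, near the filter. The direction of every value below therefore follows labels that this signal contradicts: "rose" is used of genes with more signal under the PSMA label, "fell" of the opposite. Across probe sets, r was 0.998 in each of the 6 pairs of arrays with the same label and 0.987 to 0.988 in the 9 pairs with different labels. All 6 epithelial markers (KRT8, KRT18, KRT19, EPCAM, CDH1 and ITGA6) passed the filter, with sums of 14447 to 15014 on arrays labelled PSMA and 17600 to 17980 on arrays labelled control. KLK3 and TMPRSS2, luminal markers that PC3 lacks, did not pass, nor did any of 4 leucocyte markers (PTPRC, CD3D, CD14 and LYZ, sums of 41.9 to 48.6 under the PSMA label and 42.8 to 45.2 under the control label). Of 4 fibroblast markers COL1A1 alone passed, and of 4 endothelial markers PECAM1 alone. Sums over all 4 fibroblast markers were 138 to 147 under PSMA and 162 to 165 under control. Those over all 4 endothelial markers were 111 to 125 under PSMA and 80.7 to 94.7 under control. COL1A1 (means of 90.5 under PSMA and 83.1 under control) and PECAM1 (58.2 and 50.6) overlapped between groups. The widest gaps were in LUM (6.26 under PSMA and 35.1 under control) and KDR (29.9 and 10.2), both below the filter. A 28S rRNA control probe set averaged 675 ± 4.29 under the PSMA label and 1498 ± 63.1 under the control label (SD, n = 3 each). The 3′/5′ ratio of the GAPDH control probe sets was 1.36 ± 0.0872 under PSMA and 1.30 ± 0.0668 under control. That of ACTB was 4.44 ± 0.757 under PSMA and 4.61 ± 0.658 under control (SD, n = 3 each). The part of these values in the results was not tested. In bulk RNA, a change in the share of cells in S phase and a change in RNA per cell cannot be told apart.

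Replication starts at origins that are bound by the origin recognition complex (ORC). In G1, CDC6 and CDT1 load the ring-shaped MCM2 to MCM7 helicase there. At the G1 to S transition, cyclin E with CDK2 and the kinase CDC7 with its activator DBF4 turn the loaded helicase into a moving fork by recruiting CDC45 and the GINS complex. Polymerase alpha with primase then starts each strand, replication factor C (RFC) loads the PCNA clamp, and polymerases delta and epsilon extend the strands. Many of these genes are transcribed in a burst at the G1 to S transition by E2F factors, which bind short GC-rich sites in their promoters. In prostate and other carcinomas, MCM proteins and PCNA are used as markers of proliferating cells.

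Differences in these genes were mostly small, and subunits of the same complex often differed in direction or size. Each gene was represented by its brightest probe set, and a gene was counted as changed where the limma adjusted p over all tested probe sets was under 0.05. By this rule 14 of 49 rose, 9 fell and 26 did not pass. The share called, 46.9%, stood beside 62.4% of all tested genes, of which 29.6% rose and 32.8% fell. The 3 arrays of one label lay wholly apart from the 3 of the other in 32 of the 49 (65.3%), against 69.5% of all tested genes. Over all 72 tested probe sets of these genes, 21 rose, 11 fell and 40 did not pass, beside 60.6% of all tested probe sets called. The median log2 difference was 0.09 over the 49 and -0.01 over all tested genes, and the median size regardless of sign was 0.15 and 0.22 on the log2 scale. Only 5 of 49 (10.2%) differed by 1.5-fold or more, against 13.8% of all tested genes, and these were POLD2, POLA1, RFC3, CCNE2 and E2F8. The first 3 of these passed 2-fold (6.12%, against 4.41% of all tested genes). Because the members were chosen with results known, these shares are descriptions.

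**Figure D1:**
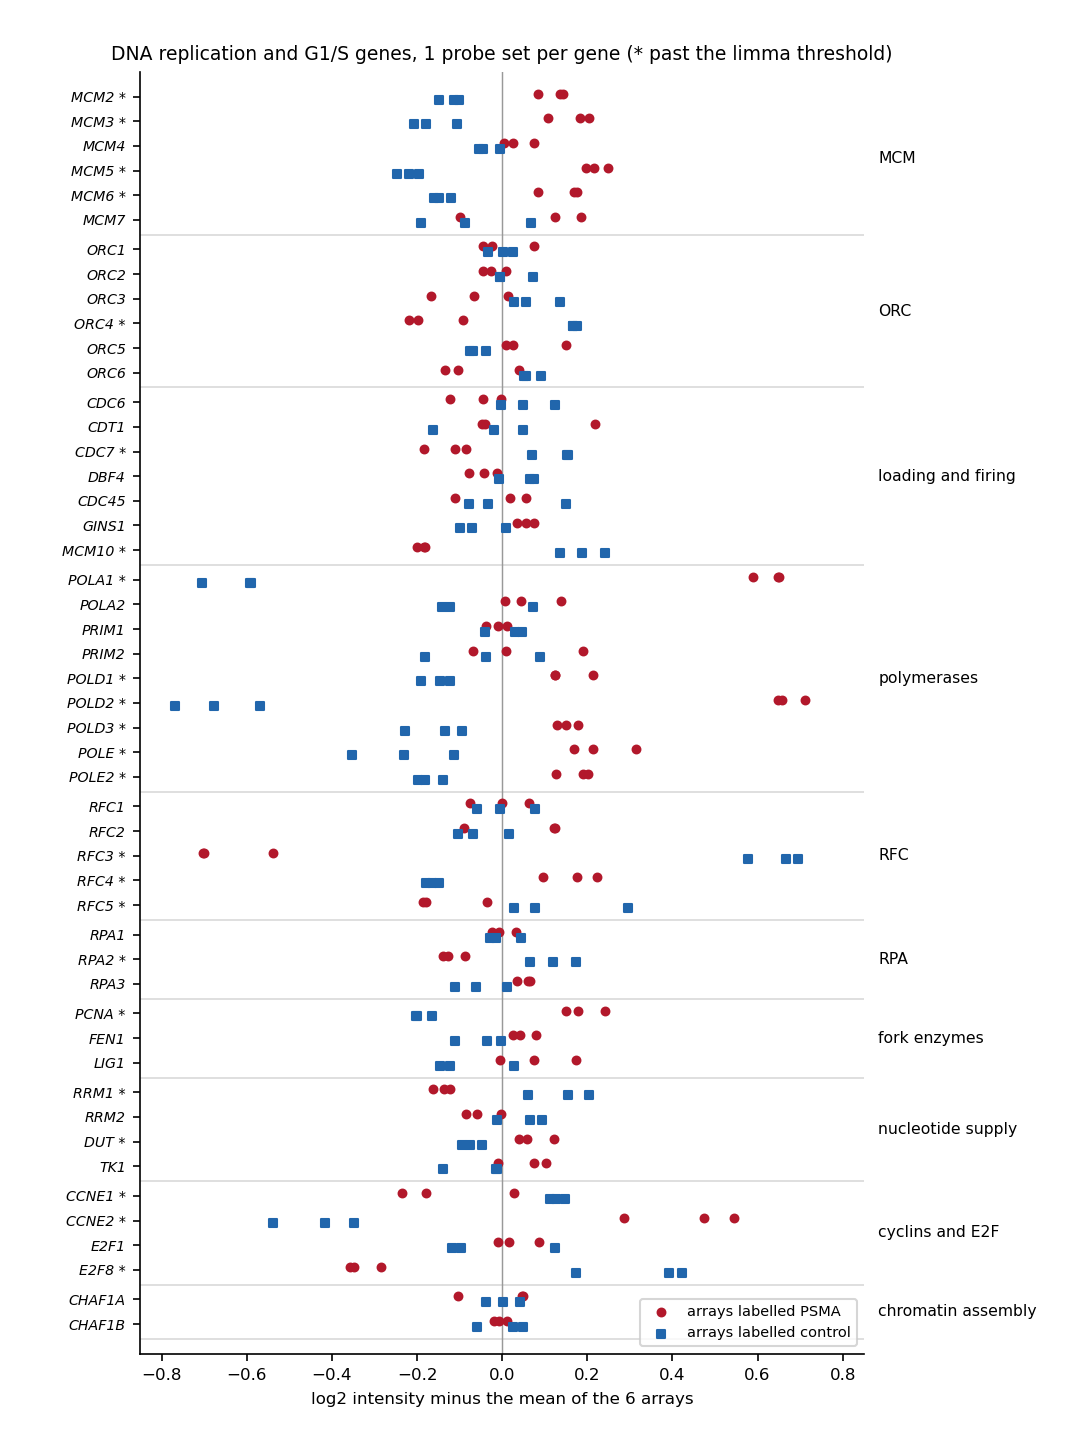
Log2 intensity of each of the 49 genes on each array, minus the gene's mean over the 6 arrays (x axis, log2 units), grouped by complex. Red circles are the 3 arrays labelled PSMA and blue squares the 3 labelled control; POLA1, POLD2 and RFC3 have the widest gaps between groups, while ORC1, RPA1 and CHAF1A overlap.

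The promoters of some of these genes hold short motifs of the E2F type, and a few are printed because they belong to genes described below that rose or fell. They are the 250 bases before the start that a RefSeq (GRCh38.p14) promoter set gives for each gene. That start is not always the outer end of the gene. For some genes, such as PRIM2, ORC1 and POLD2, the 250 bases lie inside the gene's annotated span. The promoters were searched on both strands for 4 motifs of 8 bases, TTTGGCGC, TTTCCCGC, TTTGCCGC and TTTCGCGC. Of the 49 genes, 42 had a promoter in the table, and 12 of these (28.6%) held at least 1 motif, against 4.96% of the promoters of all tested genes and 2.79% of all 27305 promoters. By outcome, 5 of 11 risen genes, 1 of 7 fallen genes and 6 of 24 genes that did not pass held one. MCM5, POLD3 and CCNE2, which rose, and E2F8 and RPA2, which fell, had no promoter sequence and are not in these counts. Motifs are in capitals, the rest in lower case, each run 5′ to 3′ on the gene's own strand, and base -1 is the last base before the start. MCM3 (chr6:52284743-52284992, minus strand) has 1 copy starting at base -174 and MCM6 (chr2:135876444-135876693, minus strand) has 4 copies in 2 overlapping pairs, starting at -152, -148, -90 and -86. PCNA (chr20:5126623-5126872, minus strand) has 1 copy at -59, POLA1 (chrX:24693668-24693917, plus strand) 1 at -137, and RFC3 (chr13:33817899-33818148, plus strand) 1 at -55.
MCM3: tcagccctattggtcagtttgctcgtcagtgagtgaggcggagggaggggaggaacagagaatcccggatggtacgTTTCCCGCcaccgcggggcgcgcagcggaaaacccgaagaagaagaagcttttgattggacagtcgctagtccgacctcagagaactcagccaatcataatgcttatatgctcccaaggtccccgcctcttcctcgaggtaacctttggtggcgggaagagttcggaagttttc
MCM6: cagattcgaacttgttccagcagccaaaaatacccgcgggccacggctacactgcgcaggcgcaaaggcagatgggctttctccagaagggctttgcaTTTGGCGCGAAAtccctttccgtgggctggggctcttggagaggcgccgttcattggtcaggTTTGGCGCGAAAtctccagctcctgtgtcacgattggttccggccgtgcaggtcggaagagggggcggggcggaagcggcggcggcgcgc
PCNA: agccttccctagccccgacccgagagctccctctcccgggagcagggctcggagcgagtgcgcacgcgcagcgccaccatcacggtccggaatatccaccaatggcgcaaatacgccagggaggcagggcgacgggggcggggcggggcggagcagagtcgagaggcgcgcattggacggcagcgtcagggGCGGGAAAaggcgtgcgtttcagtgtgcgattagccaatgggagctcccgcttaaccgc
POLA1: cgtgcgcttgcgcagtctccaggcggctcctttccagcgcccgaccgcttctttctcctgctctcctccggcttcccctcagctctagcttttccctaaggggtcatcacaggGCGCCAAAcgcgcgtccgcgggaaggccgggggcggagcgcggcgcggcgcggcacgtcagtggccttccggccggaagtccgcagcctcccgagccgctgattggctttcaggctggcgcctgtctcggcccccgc
RFC3: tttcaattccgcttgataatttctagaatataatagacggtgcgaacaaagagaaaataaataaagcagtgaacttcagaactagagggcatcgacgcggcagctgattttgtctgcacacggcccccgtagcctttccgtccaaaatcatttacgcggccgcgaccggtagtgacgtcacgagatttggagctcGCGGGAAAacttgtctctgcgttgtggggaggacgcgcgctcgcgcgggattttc
Among the printed genes, the motif was present both in those that rose (MCM3, MCM6, PCNA, POLA1) and in RFC3, which fell. POLE, which rose and is not printed, has a match at base -18. POLD2, the gene with the largest increase, had no match in its 250 bases, which lie inside its annotated span. A match is a description of these letters and not a measured binding site. Near-matches were not counted, such as tttggcgg, which CDC6 and CDC45 hold although counted as having no motif. A gene without a match may thus still hold a related sequence.

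All 6 subunits of the MCM helicase had a positive log2 difference, and 4 of the 6 rose (66.7%, beside 29.6% of all tested genes). The median was 0.26, and the sizes were small. MCM5 had 368, 359.7 and 355 intensity units on the arrays labelled PSMA, against 266, 271 and 261 on those labelled control. The groups lay well apart, with a log2 difference of 0.44, or 1.36-fold (SE 0.0422, limma adjusted p = 4.3e-05). A second, dimmer MCM5 probe set gave 0.50. MCM3 read 1004, 1058 and 1073 on arrays labelled PSMA, against 822, 806 and 865 on arrays labelled control, 1.26-fold higher. MCM6 read 1594, 1697 and 1691, against 1383, 1356 and 1346 on arrays labelled control, 1.22-fold higher. MCM2 read 366, 379 and 381, against 312, 322 and 319 on arrays labelled control, 1.18-fold higher. In each of these 3 the lowest array labelled PSMA stood above the highest labelled control (limma adjusted p = 0.000531 for MCM3, 0.000737 for MCM6 and 0.00136 for MCM2). MCM4 (log2 difference 0.07, 95% interval -0.03 to 0.17) and MCM7 (0.14, interval -0.06 to 0.35) did not pass on their brightest probe sets, nor on any of their other 4. The intervals are from limma and are not adjusted. MCM7 was scattered, with 543, 662 and 635 on arrays labelled PSMA against 548, 510.0 and 609.7 on arrays labelled control.

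The origin recognition complex, which marks origins for helicase loading, had 1 change among 6 subunits, against 62.4% called over all tested genes. ORC4 fell to 731, 669.7 and 679 on the arrays labelled PSMA, against 874, 874 and 880.1 on those labelled control, with no overlap (log2 difference -0.34, SE 0.0481, limma adjusted p = 0.000408). Its second probe set gave -0.17 and did not pass (limma adjusted p = 0.125). ORC1, the subunit whose level cycles in human cells, had 71.4, 72.4 and 77.6 on arrays labelled PSMA and 75.0, 72.0 and 73.8 on arrays labelled control, overlapping, with a log2 difference of 0.00 with a 95% interval of -0.11 to 0.12. ORC2 (-0.04), ORC3 (-0.15), ORC5 (0.12) and ORC6 (-0.13) did not pass either. For ORC3, ORC5 and ORC6 the groups did not overlap and the adjusted p lay between 0.0571 and 0.0675, just outside the threshold.

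Among the 7 factors that load and fire the helicase, 2 fell, 0 rose and 5 did not pass at the limma threshold; 32.8% of all tested genes fell. MCM10, which is needed for the loaded helicase to begin unwinding and is not part of the MCM ring, had 259, 263 and 263 on arrays labelled PSMA, against 339.6, 352 and 328 on arrays labelled control. The arrays labelled PSMA were close together and below every control, a log2 difference of -0.38 (SE 0.0449, limma adjusted p = 0.000148). CDC7, the kinase that phosphorylates the MCM ring, fell to 311, 317 and 296, against 373, 373 and 352 on arrays labelled control (log2 difference -0.25, limma adjusted p = 0.00226). Its activator DBF4 had a log2 difference of -0.09 (95% interval -0.19 to 0.01) and did not pass. The loader CDC6 had 1 lower probe set with a log2 difference of -0.29 (limma adjusted p = 0.00351), while its brightest one had -0.11 and did not pass. CDT1, the other loader, was dim, at 62.2 ± 6.69 on arrays labelled PSMA and 58.4 ± 4.32 on arrays labelled control (SD, n = 3 each), close to the filter, and did not pass. CDC45 (-0.02) and GINS1 (0.11), the helicase cofactors, did not pass. MCM10 thus had the opposite sign to the 4 MCM ring subunits that rose; this difference was not itself tested.

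**Figure D2:**
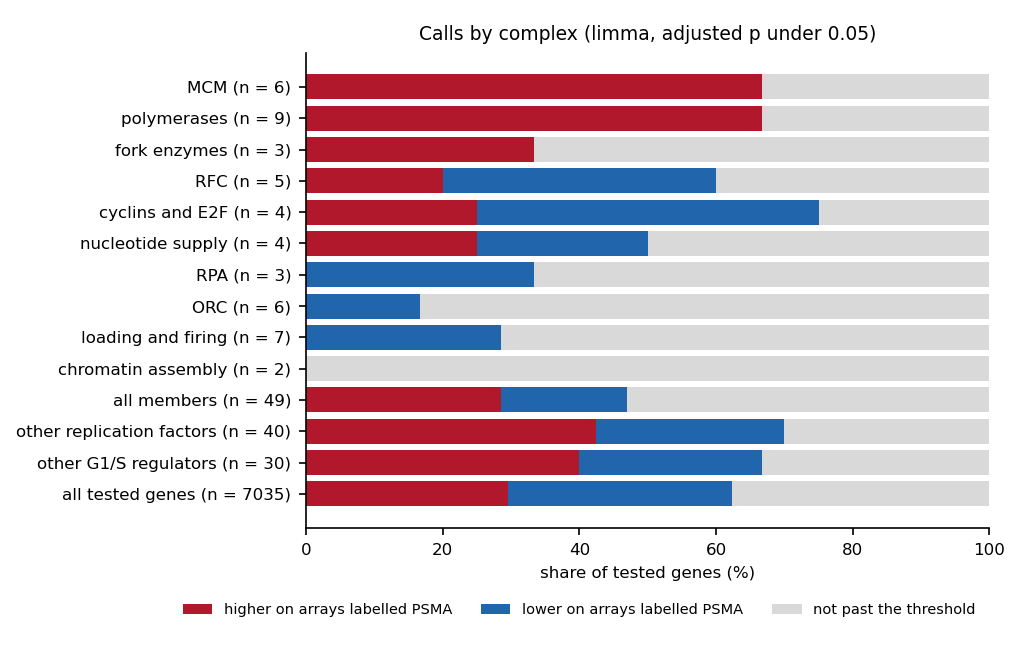
Share (%) of the tested genes in each complex that rose (red), fell (blue) or did not pass (grey) on the arrays labelled PSMA by limma, with the number of genes beside each name. Among the 49 genes, the MCM ring and the polymerases hold rises and no falls, ORC and the loading and firing factors falls and no rises, and the bar for all tested genes is the background.

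Replicative polymerases held the largest increases. Of the 9 subunits among the 49 genes 6 rose (66.7%, beside 29.6% of all tested genes), 0 fell and 3 did not pass, with a median log2 difference of 0.31. POLD2, the accessory subunit that stabilises polymerase delta, the lagging-strand enzyme, had 1061, 1055 and 1101 on arrays labelled PSMA, against 421, 395 and 453 on arrays labelled control. The lowest array labelled PSMA was far above the highest control, 2.54-fold up, with a log2 difference of 1.34 (SE 0.058, limma adjusted p = 5.8e-07). POLA1, the catalytic subunit of polymerase alpha, had 563, 564 and 541 on arrays labelled PSMA, against 239, 238 and 220.3 on arrays labelled control. Those groups also lay far apart, at 2.39-fold (log2 difference 1.26, SE 0.0496, limma adjusted p = 3.5e-07). Both genes had a single probe set.

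The partners of these 2 subunits moved less or did not pass. In polymerase alpha, the accessory subunit POLA2 had a log2 difference of 0.13 (95% interval -0.03 to 0.28). The primase subunits PRIM1 (-0.03, interval -0.13 to 0.08) and PRIM2 (0.09, interval -0.11 to 0.28), which make the RNA primer, did not pass either. The 3 intervals lay wholly below that of POLA1 (1.15 to 1.37). In polymerase delta, the catalytic subunit POLD1 averaged 215 ± 7.81 on arrays labelled PSMA and 174 ± 4.15 on arrays labelled control (SD, n = 3 each) and rose by 0.31. POLD3, a subunit that contacts PCNA, rose by 0.30 (limma adjusted p = 0.000596 for POLD1 and 0.000842 for POLD3). Both subunits of polymerase epsilon, the leading-strand enzyme, that are among the 49 rose. POLE, its catalytic subunit, had 142, 132 and 128 on arrays labelled PSMA, against 89.3, 97.1 and 105 on arrays labelled control, 1.38-fold higher, and POLE2 rose 1.27-fold (limma adjusted p = 0.000542 and 0.000228). POLE3, a small histone-fold subunit that is not one of the 49 and is named after its values were seen, fell to 778, 737 and 735 on arrays labelled PSMA, against 869, 836 and 821 on arrays labelled control, a log2 difference of -0.17 (limma adjusted p = 0.0141). POLD4, a polymerase delta subunit outside the 49, also fell (-0.27). The tested genes beside POLE3 on its chromosome had a median log2 difference of -0.24, and those beside POLD4 -0.08.

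**Figure D3:**
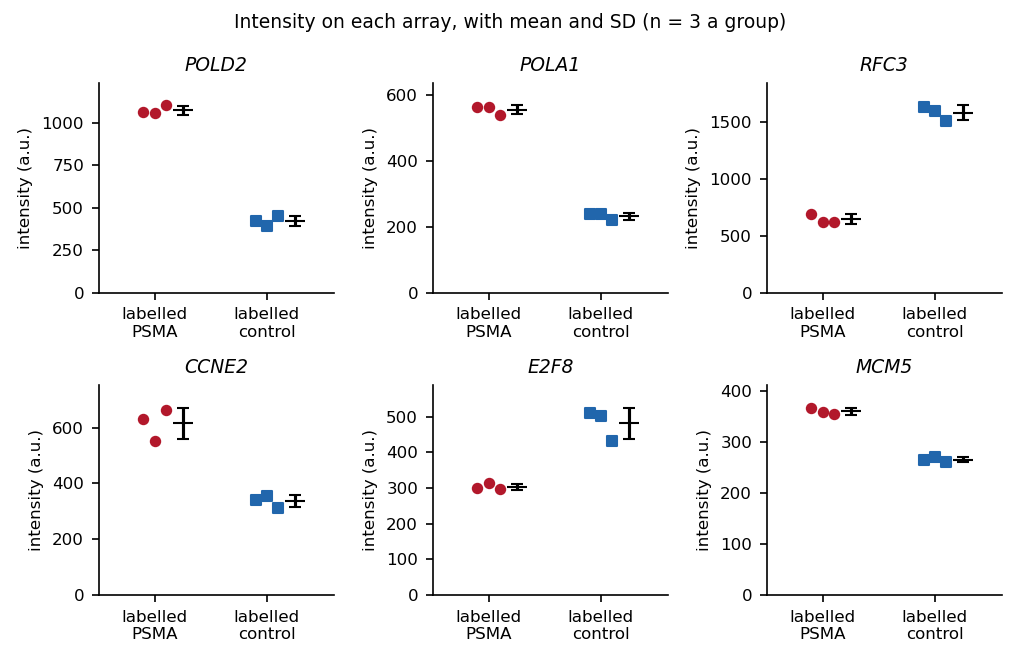
Intensity (arbitrary units, linear axis from 0) of 6 genes on the arrays labelled PSMA (red, left) and control (blue, right), with the mean and SD of each group (n = 3). POLD2, POLA1, CCNE2 and MCM5 were higher and RFC3 and E2F8 lower on all 3 arrays labelled PSMA.

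Subunits of RFC, the clamp loader, went in different directions. RFC3, a small ATPase subunit of the core, fell to 697, 621 and 623 on arrays labelled PSMA, against 1636, 1605 and 1509.9 on arrays labelled control. The groups were far apart, 2.45-fold lower (log2 difference -1.29, SE 0.06, limma adjusted p = 8.6e-07), and the second RFC3 probe set, which read 203, 202 and 183 against 511, 513 and 498 on arrays labelled control, was 2.59-fold lower. RFC4, another core subunit, rose to 937, 967 and 886, against 748, 732 and 739 on arrays labelled control, 1.26-fold higher (limma adjusted p = 0.000439). RFC1, the large subunit, had a log2 difference of -0.01 and did not pass. RFC2 had one probe set that rose by 0.19 (limma adjusted p = 0.0206) and a brighter one at 0.10 that did not pass.

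RFC5 could not be given a direction. On its brightest probe set the log2 difference was -0.27 (limma adjusted p = 0.0166), and this call was lost without replicate 4 (limma adjusted p = 0.0566) or without replicate 5 of the PSMA group (0.0557). The other 2 rose, by 0.38 and 0.34 (limma adjusted p = 0.00212 and 0.000257). With the mean of its 3 probe sets the gene had a log2 difference of 0.15 (limma adjusted p = 0.0205), so it is counted among the fallen genes above only by the rule of the brightest probe set. RRM2 showed a milder disagreement, described with nucleotide supply. Of the 18 genes with several tested probe sets, RFC5 was the only one called in both directions. Another 3 (MCM5, RFC3 and CCNE2) were called the same way by every probe set. A further 6 had some called one way and some not past, and 8 had none called. This split was not counted over all tested genes, where 60.6% of tested probe sets were called.

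**Figure D4:**
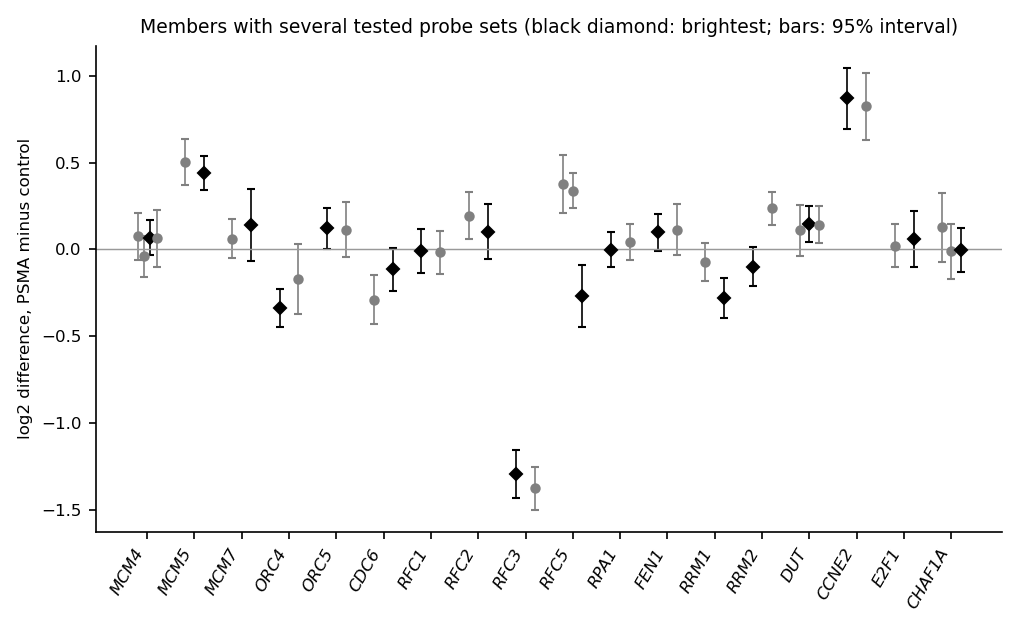
Log2 difference (arrays labelled PSMA minus control) of each tested probe set of the 18 genes that have several, with the unadjusted 95% interval from limma; black diamonds are the brightest probe sets. The 3 probe sets of RFC5 lie on both sides of 0, whereas those of RFC3, CCNE2 and MCM5 lie close to each other.

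At the fork, PCNA, the sliding clamp that holds polymerases on DNA, rose to 3967, 3891 and 4146 on arrays labelled PSMA, against 3131, 3055 and 3048 on arrays labelled control. The groups did not overlap, with a log2 difference of 0.38, or 1.30-fold (SE 0.0446, limma adjusted p = 0.000139). The enzymes that finish Okazaki fragments did not pass: the flap nuclease FEN1 had a log2 difference of 0.10 (95% interval -0.01 to 0.21) and the ligase LIG1 0.16 (interval 0.01 to 0.31, limma adjusted p = 0.0611). Among the 3 subunits of RPA, the complex that covers single-stranded DNA, RPA2 fell and the others did not pass, a share of 33.3% beside the 32.8% of all tested genes that fell. RPA2 had 672, 690.3 and 666 on arrays labelled PSMA, against 797, 768 and 827 on arrays labelled control, a log2 difference of -0.24 (limma adjusted p = 0.00233). RPA1, the large subunit, had -0.00 on the log2 scale with an interval of -0.10 to 0.10, and RPA3 had 0.11. The chromatin assembly factor CAF-1, which places histones on new DNA, had no call: CHAF1A differed by -0.00 (interval -0.13 to 0.12) and CHAF1B by -0.01 (interval -0.12 to 0.10).

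Nucleotide supply genes had 1 rise and 1 fall among 4, no larger a share than the 29.6% and 32.8% of all tested genes that rose and fell. RRM1, the large subunit of ribonucleotide reductase, fell to 1789.6, 1739.7 and 1772 on arrays labelled PSMA, against 2244, 2168 and 2030.1 on arrays labelled control (log2 difference -0.28, SE 0.05, limma adjusted p = 0.00145). The groups did not overlap, and a dimmer RRM1 probe set had -0.07 and did not pass. RRM2, the small subunit whose level limits the enzyme in S phase, gave no call on its brightest probe set (log2 difference -0.10), whose groups overlapped. Its second probe set rose by 0.24 (limma adjusted p = 0.00115). DUT, which removes dUTP, rose 1.11-fold (log2 difference 0.15, limma adjusted p = 0.0192); the call was lost without replicate 4 of the PSMA group (limma adjusted p = 0.0628), without replicate 1 of the control group (0.0562), and with dim probe sets kept (0.0739). TK1, the salvage thymidine kinase, had a log2 difference of 0.11 and did not pass.

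CCNE2 and E2F8 differed by over 1.5-fold, and CCNE1 by less. CCNE2 had 630.0, 553 and 662 on arrays labelled PSMA, against 339.9, 356 and 313 on arrays labelled control. The groups did not overlap, with a log2 difference of 0.87, or 1.83-fold (SE 0.0772, limma adjusted p = 2.8e-05), with 0.82 on the second probe set. CCNE1, the other cyclin of CDK2 at the G1 to S transition, went the opposite way, with 140.3, 122 and 117 on arrays labelled PSMA against 149, 150.4 and 153 on arrays labelled control (log2 difference -0.26, SE 0.0686, limma adjusted p = 0.011). E2F8, a repressor of E2F target genes, fell to 299.9, 313 and 298, against 511, 501 and 430.4 on arrays labelled control, 1.58-fold lower (log2 difference -0.66, SE 0.0693, limma adjusted p = 7.2e-05). E2F1, the activator, had a log2 difference of 0.06 on its brightest probe set and 0.02 on the other, and neither passed. The proliferation marker MKI67, which is not one of the 49, averaged 544 ± 23.9 on arrays labelled PSMA and 556 ± 18.8 on arrays labelled control (SD, n = 3 each; log2 difference -0.03, limma adjusted p = 0.623).

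Some of the 49 genes shared their direction with the genes beside them on the chromosome. For each, the median log2 difference was taken over the 10 tested genes on either side in RefSeq order. RFC3, on chromosome 13, had neighbours with a median of -1.18, of which 17 of 20 were negative, close to its own -1.29. E2F8 and RRM1, both on chromosome 11, had neighbours at -0.49 and -0.50, with 19 of 20 negative around each, and MCM10, on chromosome 10, had neighbours at -0.46. For POLA1, on chromosome X, the neighbours had a median of -0.11 with 10 positive and 10 negative, and for POLD2, on chromosome 7, 0.18 with 13 positive. CCNE2, on chromosome 8, had neighbours at 0.08. The 3 largest rises were thus 1.37, 1.16 and 0.79 above their surroundings for POLA1, POLD2 and CCNE2, while RFC3 was 0.12 below, E2F8 0.17 below, and RRM1 0.22 and MCM10 0.09 above. MCM3 and MCM6 rose among neighbours with medians of -0.25 and -0.17. Other rises went with their surroundings, such as PCNA (0.38, neighbours at 0.23) and POLE (0.46, neighbours at 0.28). RPA2 (-0.24) fell among neighbours at 0.01, and RFC5, whose probe sets disagree, had neighbours at 0.21. By sign, 9 of the 14 risen genes and 7 of the 9 fallen genes matched their neighbours' median. This match in sign was not counted over all tested genes, so it is not a trait of these genes. GINS1, on chromosome 20, did not pass although all 20 of its neighbours were positive (median 0.37). Over the 49 genes, Pearson's r between a gene's difference and its neighbours' median was 0.60, and 0.42 without RFC3, against 0.48 over all 7033 tested genes with a place; all points come from the same 6 arrays and some share neighbours, so this is a description.

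**Figure D5:**
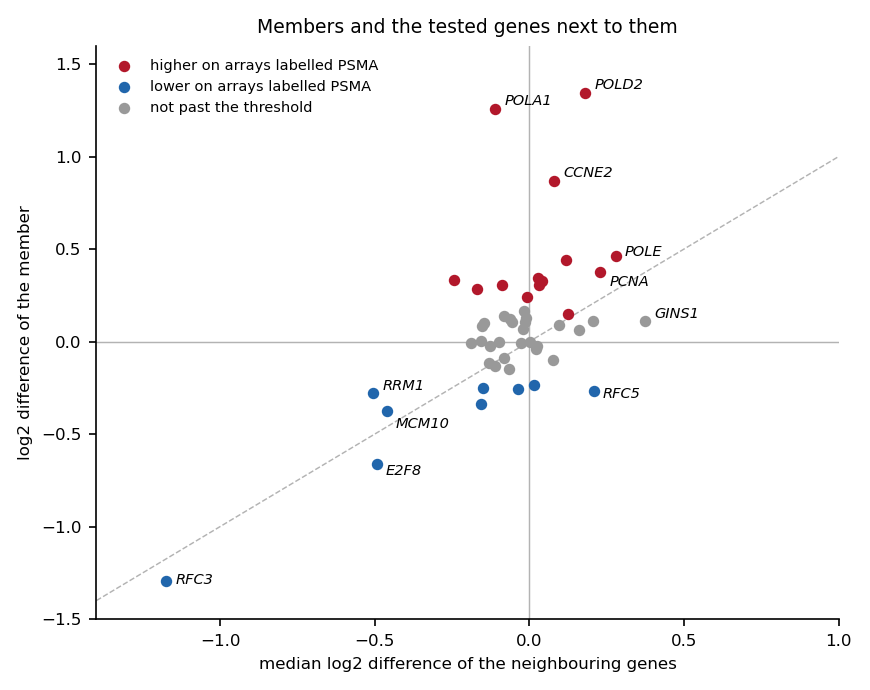
Log2 difference of each of the 49 genes (y axis) against the median log2 difference of the 20 tested genes next to it, 10 on either side where present (x axis); colours give the limma call and the dashed line marks equality. RFC3, E2F8, MCM10, RRM1, PCNA and POLE lie near the line, POLA1, POLD2 and CCNE2 lie far above it, and RFC5 lies below it.

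The other genes of DNA replication, from a list of 47 that holds none of the 49, had 40 tested members, of which 17 rose, 11 fell and 12 did not pass (70.0% called, beside 62.4% of all tested genes). The median log2 difference was 0.11. WDHD1, which tethers polymerase alpha to the helicase, rose 1.66-fold, among neighbours at 0.48. UNG, the uracil-DNA glycosylase, rose 1.64-fold, DTYMK, which makes dTDP, 1.55-fold, and SSRP1, a subunit of the histone chaperone FACT, by 0.58 on the log2 scale (limma adjusted p = 2.6e-05, 2.5e-05 and 2.5e-05). Their neighbours had medians of 0.26 for UNG, 0.52 for DTYMK, whose own log2 difference was 0.63, and -0.29 for SSRP1. The largest falls were the helicase gene RECQL4 (log2 difference -0.43), the histone chaperone ASF1A (-0.29), POLD4, the smallest subunit of polymerase delta (-0.27), and the nuclease EXO1 (-0.26; limma adjusted p from 0.000122 to 0.00712). The count of falls was 6 without replicate 5 of the PSMA group, 7 without replicate 1 of the control group and 6 with dim probe sets kept.

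Regulators of the G1 to S transition outside the 49 had 30 tested members of 40, with 12 higher, 8 lower and 10 not past. The share called, 66.7%, was near the 62.4% of all tested genes. CUL4A, a scaffold of the ubiquitin ligase that destroys CDT1, averaged 508 ± 30.9 on arrays labelled PSMA and 239 ± 22.8 on arrays labelled control (SD, n = 3 each), 2.13-fold higher. SKP2, the substrate receptor of another ubiquitin ligase of this transition, had 1304, 1308 and 1486 on arrays labelled PSMA, against 636, 667 and 626 on arrays labelled control, 2.12-fold higher (limma adjusted p = 2.4e-06). TFDP1, the DNA-binding partner of E2F proteins, rose 1.95-fold and RB1, the retinoblastoma protein that restrains them, 1.93-fold. CUL4A, TFDP1 and RB1 all lie on chromosome 13, with neighbours at 0.76, 0.72 and 0.83, unlike RFC3 on the same chromosome, whose neighbours were lower; the neighbours of SKP2, on chromosome 5, were at -0.11. The largest falls were E2F5 (log2 difference -0.51), LIN37, a subunit of the DREAM repressor complex (-0.36), the checkpoint kinase CHEK1 (-0.34) and E2F6 (-0.25; limma adjusted p from 2.3e-05 to 0.00807). The count of falls was 5 without replicate 6 of the PSMA group and 5 with dim probe sets kept.

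Most calls among the 49 genes were of small size. When limma tested against a minimum fold of 1.2 instead of 0, 5 of the 49 were called higher and 2 lower, beside 23.3% of all tested genes called by that rule. MCM5, POLA1, POLD2, POLE and CCNE2 were the 5, and RFC3 and E2F8 the 2. MCM2, MCM3, MCM6, PCNA, ORC4, MCM10 and the remaining calls thus rest on differences that the 3 arrays of each group do not separate from 1.2-fold. Separate cultures are not stated in the labels for the 3 samples of a group, so the spread behind each p-value may be technical.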

How the data were processed

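RNA of 6 PC3 samples was hybridised as biotin-labelled cRNA, made from 2 µg of total RNA, to Affymetrix arrays, per the labels' protocols. The authors deposited 1 processed intensity for each probe set of an array; the submitters' processing notes name GCRMA, whose version and any later step are not given in the sources used here. Intensities ran from 3.76 to 17455 with array medians of 51.7 to 52.9, so they were taken as linear; the scale is not stated. Background correction of this kind compresses low signals. With arrays, the number of samples (3 in each group) limits the precision.

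Values were taken to log2 with no pseudocount. Of 22277 probe sets, 62 controls were left out, 19064 had 1 gene symbol in the platform annotation, 1043 had several and 2108 were unnamed here; probe sets with several symbols were used for FOLH1 alone. Of the 19064, 19052 were found by gene identifier in the RefSeq table (GRCh38.p14), and 0 symbols needed an update. Limma 3.58.1 in R 4.3.3 (lmFit, eBayes) fitted PSMA minus control on the 11303 probe sets brighter than the table's median on 3 or more of 6 arrays. Tests were two-sided, with Benjamini-Hochberg adjustment over all of them and a threshold of 0.05. The fit was also run on simulated data in which few probe sets were changed. That run does not show how the fit behaves where 60.6% are called, as here. A gene was represented by its brightest single-gene probe set. Summaries used pandas 2.3.3 with numpy 2.4.6 under Python 3.11.15, and plots matplotlib 3.10.9.

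The members and lists were chosen with earlier results of these data known. The rule for names was FOLH1, all members, MKI67, and in each of the 2 lists of other genes the 4 largest rises and 4 largest falls past the threshold. POLE3 was named outside this rule. Alternatives tried were other filters, quantile normalization, a pseudocount of 16, a floor at the 25th percentile, an intensity trend, a minimum fold of 1.2, a fit over 1 probe set per gene, the mean over probe sets, and leaving out each array.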

Additional observations from a re-analysis of the deposited data

How the results depend on the processing

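The 14 rises and 9 falls among the 49 genes ranged from 13 to 18 and from 8 to 10 when each array was left out, and from 13 to 18 and 9 to 12 over the other planned settings apart from the minimum fold of 1.2, which left 5 and 2. Apart from that minimum fold, 13 of the 14 rises (all but DUT) and 8 of the 9 falls (all but RFC5) kept their call under every setting, while 13 of the 26 genes that did not pass stayed so. RFC5 reversed to 0.15 on the log2 scale with the mean over its probe sets, because its probe sets disagree. With that mean the median log2 difference was 0.148 for RFC and 0.0904 for nucleotide supply, against -0.0089 and 0.0065 with the brightest probe sets. Quantile normalization gave medians of 0.0338 for RPA and -0.0605 for cyclins and E2F, against -0.0005 and -0.0987 without it. The cause was not tested. With an array left out, the median ran from 0.116 to 0.217 for PCNA, FEN1 and LIG1 together and from -0.128 to -0.0556 for cyclins and E2F. On all 6 arrays these medians were 0.1625 and -0.0987. With dim probe sets kept, 6 other replication factors and 5 other G1/S regulators fell, and with an array left out 6 to 10 and 5 to 7 did; more tests and fewer arrays are part of these settings. The brightest FOLH1 probe set ran from -5.46 to -5.05. No paired analysis was possible because the groups share no replicate numbers. Dim probe sets, such as those of CDT1 and ORC1, lie near the filter and limit what these arrays can show.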
